A study of Mus musculus with 12 samples.

Results

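Voltage-gated and potassium channel genes encode the pore-forming and auxiliary subunits of the ion channels that set membrane potential. They were defined here as the protein-coding genes of the count table whose GENCODE M21 symbol begins with Kcn and a letter, Scn and a digit, or Cacna, Cacnb or Cacng. The rule used names only, and it gave 134 genes of the 43432 in the table. Expression was measured by RNA-seq in 12 libraries of sorted EpCAM+ epithelium from Flare25 mice, which carry a red fluorescent reporter of the cytokine IL-25. Tuft cells, rare chemosensory epithelial cells, are the known epithelial source of IL-25. The 4 groups of 3 libraries were IL-25+ and IL-25- cells of the proximal small intestine (SI-pos and SI-neg) and IL-25+ and IL-25- cells of the gallbladder (GB-pos and GB-neg). All cells were live, single and EpCAM+, so SI-neg and GB-neg are mixtures of the other epithelial cells and not a cell type. The treatment label of all 6 gallbladder libraries gives HDM AF647, 1 day before collection, and the small intestine libraries carry no such label, although the protocol of every library says homeostasis. Tissue and that label cannot be told apart. Age, sex and any pooling of animals are not given in the sources used here, and the labels do not say whether the 3 libraries of a group are 3 animals. Each p-value therefore reflects spread between libraries, which may be technical.

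Potassium channels let potassium leave the cell and pull the membrane potential negative. Voltage-gated (Kv), inwardly rectifying (Kir), tandem-pore (leak) and calcium- or sodium-activated families differ in what opens them, and in secretory epithelia they supply the driving force for chloride and fluid secretion. Voltage-gated sodium (Nav) and calcium (Cav) channels open on depolarisation. Most Cav pore subunits, alpha1, are trafficked and tuned by an intracellular beta subunit and an extracellular alpha2delta subunit. Tuft cells depolarise when the cation channel Trpm5 opens after receptor signalling, and enteroendocrine cells, the hormone-secreting cells of the gut, fire action potentials that use Nav and Cav channels.

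Total counts per library ran from 23703449 to 64736650. Levels below are CPM, that is counts relative to the TMM-scaled library size, and a mean is given ± SD over 3 libraries. The 8 tuft markers summed to 12235 to 13804 CPM in SI-pos and 15522 to 17391 in GB-pos, against 52.6 to 150 in SI-neg and 21.5 to 101 in GB-neg, which fits the labels of the gate. Il25 itself was at 13.0 ± 6.06 CPM in SI-pos, 0.0281 ± 0.0258 in SI-neg, 8.44 ± 3.11 in GB-pos and 0.234 ± 0.381 in GB-neg. GB-neg 1 stood apart in ways that touch the results. It held intestinal transcripts: 7 enterocyte markers summed to 712 CPM there against 13.1 to 18.0 in the other GB-neg libraries, and 14 enteroendocrine markers to 472 against 74.5 to 96.7. GB-neg 1 was also the deepest library and detected 96 channel genes against 56 and 66 in the other GB-neg libraries. At 1 CPM or more of its unscaled total it held 45 against 28 and 23. SI-neg 3 read 2754 CPM over 6 gallbladder markers against 2294 and 2296 in the other SI-neg libraries. That list summed to 9310 to 12821 CPM in GB-neg, but to 3391 to 4222 in SI-pos and 2343 to 2672 in GB-pos. It is therefore not specific to gallbladder, and the value of SI-neg 3 does not show gallbladder transcripts there. Mitochondrial genes took 12.1 to 17.2% of counts in SI-pos against 26.6 to 34.9% in SI-neg, and 7.13 to 8.83% in GB-pos against 11.2 to 25% in GB-neg, and the part of that difference in the results below was not tested. Because these are bulk samples, fewer cells of a type and less RNA per cell cannot be told apart.

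The 134 genes took a small share of all counts, and the share was larger in IL-25+ cells: 0.128 to 0.1343% in SI-pos, 0.0762 to 0.0831% in SI-neg, 0.1794 to 0.1985% in GB-pos and 0.1072 to 0.1318% in GB-neg. In neither tissue did the gate's groups overlap. Cacna2d2 alone held 41.2 to 45.8% of the channel counts in SI-pos and 29.3 to 31.6% in GB-pos. The larger share therefore rests in large part on that gene and is not a trait of the 134 genes as a set. Of the 134 genes, 76 (56.7%) passed the filter on low counts, compared with 38.3% of all genes in the table. The table also holds genes that are not protein-coding, while the 134 all are, so these shares are not over like sets. The other 58 were not tested: 12 had no count in any library and 46 had a few, with a highest group mean of 2.63 CPM for Scn4a in SI-pos, where 189 of its counts came from SI-pos 2 alone. A gene that passes the filter through 1 group only had to differ from the rest, so counts over the 76 genes are read beside the same counts over all tested genes.

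Per kilobase of exon, Cacna2d2, Kcnq1 and Kcnk5 led the groups. In SI-pos the leader was Cacna2d2, a calcium channel alpha2delta subunit, at 82.8 ± 2.77 CPM per kb, above the leak channel Kcnk1 at 47.2 ± 5.77. Their 3 libraries did not overlap. Kcnq1 (25 ± 6.04) and Kcnj16 (24.4 ± 12.5) came next and overlapped each other. In SI-neg Kcnq1 (28.3 ± 12.1), Kcne3 (22.8 ± 9.06) and Kcnk5 (22.1 ± 1.75) led with overlapping ranges. GB-pos was led by Kcnq1 at 75.7 ± 5.13 CPM per kb and Cacna2d2 at 60.8 ± 1.70, which did not overlap. GB-neg was led by the leak channels Kcnk5 (76.7 ± 10.5) and Kcnk1 (56.5 ± 16.3), whose ranges did. On counts, Cacna2d2 alone held 41.2 to 45.8% of all channel counts in SI-pos and 29.3 to 31.6% in GB-pos, and Kcnk5 held 19.7 to 24.5% in GB-neg.

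The first question was which channel genes differ between IL-25+ and IL-25- epithelium of the same tissue. In the small intestine 31 of the 76 tested channel genes (40.8%) passed the test: 11 were higher and 20 were lower in IL-25+ cells. Of all tested genes 27.2% passed, 14.5% higher and 12.8% lower. The share of channel genes that were higher was 14.5%, equal to that of all genes, and the share that were lower was 26.3%. A gene that passed the count filter through SI-neg alone could only be lower or not pass. How many of the 20 did so was not counted, so the 26.3% is not read as a trait of the set. The same limit applies to the shares in the comparisons below. Their median log2 fold change was -0.95 against -0.073 for all genes. With 8 genes that had no count in 1 group set at their bounds, the median was -0.73. In the gallbladder 20 of 76 (26.3%) passed, 11 higher and 9 lower, near the share of all genes (26.8%, with 12.4% higher and 14.4% lower), and the median was 0.29 against -0.15. The test was edgeR's quasi-likelihood F test with Benjamini-Hochberg adjustment over all 16636 tested genes at 0.05, and log2 fold changes are given ± SE.

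**Figure D1:**
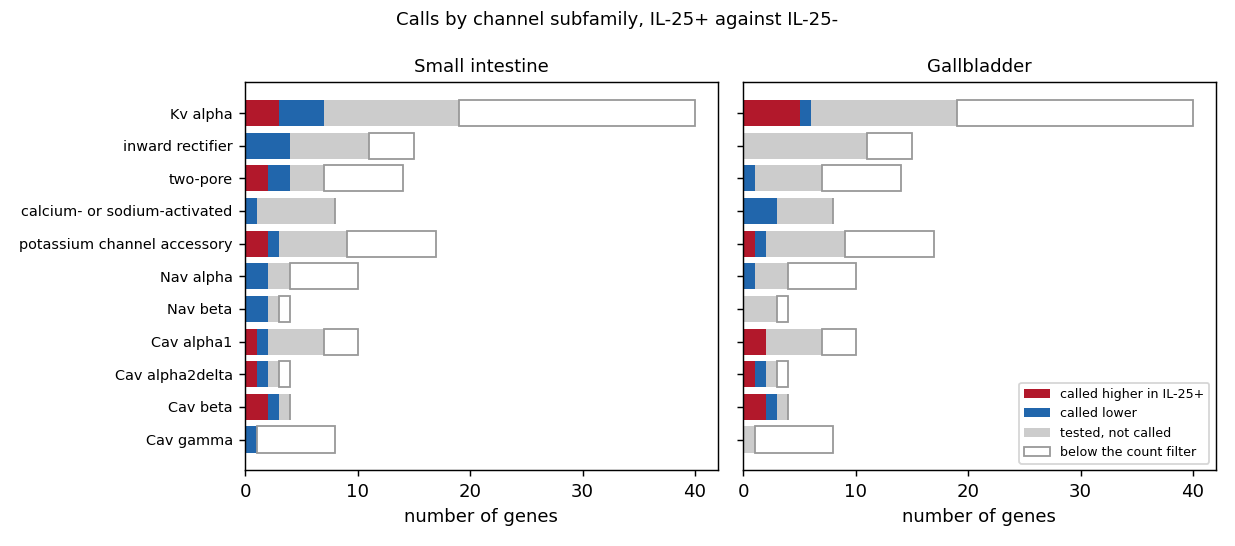
Number of channel genes (x axis) in each subfamily (y axis) that were higher in IL-25+ cells (red), lower (blue), tested without passing (grey) or below the count filter (white), in the small intestine (left) and gallbladder (right). All 4 inward rectifier genes that passed in the small intestine were lower, and none of the 11 tested passed in the gallbladder. Of all tested genes 12.8% were lower in the small intestine and 26.8% passed in the gallbladder.

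The same 12 genes passed in both tissues in 1 direction, 6 higher and 6 lower, and no gene passed in opposite directions. The higher ones included the Kv pore gene Kcnd3, the accessory gene Kcnab2, and the calcium channel genes Cacna2d2 and Cacnb4. The lower ones were Kcnb2, Kcne3, Kcnk5, Scn8a, Cacna2d1 and Cacnb2. As promoter sequence, 250 bases before a RefSeq start (GRCm38.p6) follow for 3 of the higher genes and 2 of the lower, each read 5′ to 3′ on the gene's strand. GENCODE M21 places some starts further upstream: the Cacna2d2 and Kcnab2 windows lie wholly inside the annotated gene, and those of Kcne3 and Kcnk5 overlap the annotated gene. Capitals mark either the octamer ATGCAAAT, the binding motif of POU-domain factors such as Pou2f3, which tuft cells require, or the GC box GGGCGG, each on either strand (ATTTGCAT and CCGCCC on the other). The 2 motifs share no bases in these windows.
Kcnd3, chr3:105451640-105451889, plus strand: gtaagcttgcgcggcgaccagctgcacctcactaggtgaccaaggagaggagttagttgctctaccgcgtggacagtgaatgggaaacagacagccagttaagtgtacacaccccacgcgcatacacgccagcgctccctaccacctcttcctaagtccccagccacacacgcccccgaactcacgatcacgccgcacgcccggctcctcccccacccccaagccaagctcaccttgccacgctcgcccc
Cacna2d2, chr9:107399630-107399879, plus strand: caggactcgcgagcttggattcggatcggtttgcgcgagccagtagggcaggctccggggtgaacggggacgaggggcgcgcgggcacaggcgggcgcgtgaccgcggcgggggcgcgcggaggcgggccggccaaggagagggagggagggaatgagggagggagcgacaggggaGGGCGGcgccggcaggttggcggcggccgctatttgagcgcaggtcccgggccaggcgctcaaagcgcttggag
Kcnab2, chr4:152477550-152477799, minus strand, 1 of 3 listed starts: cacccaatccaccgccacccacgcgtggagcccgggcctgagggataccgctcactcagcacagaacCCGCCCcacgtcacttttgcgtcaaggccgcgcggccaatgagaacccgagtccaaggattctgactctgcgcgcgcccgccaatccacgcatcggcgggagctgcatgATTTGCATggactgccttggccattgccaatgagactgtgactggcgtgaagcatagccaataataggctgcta
Kcne3, chr7:100176420-100176669, plus strand, 1 of 2 listed starts: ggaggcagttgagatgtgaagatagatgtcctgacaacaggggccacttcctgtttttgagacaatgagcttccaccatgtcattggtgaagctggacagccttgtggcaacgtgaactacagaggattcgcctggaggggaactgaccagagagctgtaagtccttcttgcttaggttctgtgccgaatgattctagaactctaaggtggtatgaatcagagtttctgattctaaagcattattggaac
Kcnk5, chr14:20181783-20182032, minus strand: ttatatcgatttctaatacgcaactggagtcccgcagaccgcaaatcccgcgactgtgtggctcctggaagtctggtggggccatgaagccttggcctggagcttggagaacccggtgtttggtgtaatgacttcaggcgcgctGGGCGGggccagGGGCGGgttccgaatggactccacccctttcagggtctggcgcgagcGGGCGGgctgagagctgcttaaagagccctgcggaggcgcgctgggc
Kcnab2 had 1 octamer and 1 GC box, Cacna2d2 had 1 GC box, Kcnk5 had 3 GC boxes, and Kcnd3 and Kcne3 had neither set of letters in the window. The Kcnab2 start was picked because its window holds an octamer, and the other listed starts of Kcnab2 have none. For the other genes the start furthest upstream was taken. Over all 32851 RefSeq windows of this length, 1.6% held an octamer and 32.7% a GC box. RefSeq starts were found for 99 of the 134 genes, with 135 windows, of which 1 (0.741%) held an octamer and 57 (42.2%) a GC box. These are matches of letters and say nothing about binding.

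Calcium channel pore genes came in distinct patterns. Cacna1a, the P/Q-type pore (chromosome 8, 84388440 to 84640246, GRCm38), was the most abundant of them by count. Its CPM were 106, 96.9 and 79.5 in SI-pos, 71.7, 93.5 and 71.5 in SI-neg, 119, 75.0 and 61.1 in GB-pos, and 12.4, 8.06 and 11.5 in GB-neg. Only GB-neg stood apart, and the other groups overlapped. In the gallbladder Cacna1a was higher in IL-25+ cells by a log2 fold change of 2.99 ± 0.29 (adjusted p = 7.87e-06), while in the small intestine the change was 0.25 ± 0.27 (adjusted p = 0.518). The difference between the tissues passed its own test, at 2.74 ± 0.38 (adjusted p = 0.000692). Cacna1e, the R-type pore, was almost confined to GB-pos, with 28.1, 37.2 and 9.77 CPM there and at most 4.27 in any other library (SI-neg 2). Its gate change in the gallbladder was 7.43 ± 1.95 (adjusted p = 0.0149), and this did not pass without GB-neg 2 (adjusted p = 0.0585).

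The T-type pores split by gate in the small intestine. Cacna1h read 0.453, 0.401 and 0 CPM in SI-pos and 23.9, 47.8 and 33.7 in SI-neg, which gave -6.92 ± 1.83 (adjusted p = 0.0164). The call was lost on leaving out any 1 SI-pos library (adjusted p 0.0555 to 0.0664). Cacna1g went the other way at a far lower level, with 25, 111 and 3 counts in SI-pos and none in SI-neg. Measured against a floor of 3 counts over the SI-neg group, Cacna1g was at least 62.7-fold higher in SI-pos (adjusted p = 0.0362). This size leaned on SI-pos 2 (111 of 139): leaving that library out lowered it to at least 18.8-fold. That call was lost without SI-pos 1, SI-pos 2, GB-pos 1 or any 1 SI-neg library (adjusted p 0.0541 to 0.112). The L-type pores did not separate the gates: Cacna1d changed by 0.68 ± 0.76 in the small intestine (adjusted p = 0.548) and 1.30 ± 0.77 in the gallbladder (adjusted p = 0.238). Cacna1c changed by 0.80 ± 0.92 (adjusted p = 0.556) and 0.40 ± 1.04 (adjusted p = 0.814).

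Auxiliary calcium channel genes included Cacna2d2, the channel gene with the most counts in all 6 IL-25+ libraries. Cacna2d2 (chromosome 9, 107399612 to 107529343), an alpha2delta subunit that carries pores to the cell surface, had 661, 635 and 678 CPM in SI-pos, 19.3, 23.7 and 4.65 in SI-neg, 479, 499 and 473 in GB-pos, and 6.86, 3.16 and 0.162 in GB-neg. Every IL-25+ library lay above every IL-25- library. The log2 fold change was 5.37 ± 1.01 in the small intestine (adjusted p = 0.00334) and 7.13 ± 1.09 in the gallbladder (adjusted p = 0.00101). Its paralog Cacna2d1 showed the reverse, with 0.377, 0.562 and 0.486 CPM in SI-pos against 24.2, 47.5 and 27.4 in SI-neg (-6.11 ± 1.02, adjusted p = 0.000712). In the gallbladder Cacna2d1 read 0.203, 1.04 and 0.0538 CPM in GB-pos and 5.11, 2.57 and 0.617 in GB-neg, where the groups overlapped. That change, -2.71 ± 0.90 (adjusted p = 0.039), was -1.93 without GB-neg 1 (adjusted p = 0.145) and -4.42 without GB-pos 2 (adjusted p = 0.00526). It was also lost without any 1 of GB-neg 2, GB-pos 1, GB-pos 3, SI-pos 3 or the 3 SI-neg libraries (adjusted p 0.0504 to 0.121).

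All 4 beta subunit genes were tested, and each passed in at least 1 tissue. Of all tested genes 27.2% passed in the small intestine and 26.8% in the gallbladder. Cacnb4 read 15.7, 17.5 and 14.1 CPM in SI-pos, 0.356, 0.334 and 0.102 in SI-neg, 62.3, 82.4 and 66.3 in GB-pos, and 2.69, 0.295 and 0.325 in GB-neg. Its change was nearly the same in both tissues, 5.90 ± 0.83 in the small intestine (adjusted p = 0.000202) and 5.93 ± 0.79 in the gallbladder (adjusted p = 0.00014). Of the exon length of Cacnb4, 16% is shared with the antisense gene A430018G15Rik, which had at most 81 counts in a library. Cacnb2 was lower in IL-25+ cells of both tissues, with 1, 1 and 0 counts in SI-pos against 166, 167 and 134 in SI-neg, a ratio of 172 with an exact binomial 95% interval of 47.5 to 1428 that covers counting error only. In the gallbladder its change was -4.04 ± 0.93 (adjusted p = 0.00586), from 9.38 CPM in GB-neg to 0.572 in GB-pos. Cacnb1 was higher in SI-pos (10.6, 14 and 21.3 CPM) than in SI-neg (2.49, 2.0 and 1.30), by 2.99 ± 0.39 (adjusted p = 9.64e-05). It was at 15 to 34.0 CPM in all gallbladder libraries. Cacnb3, the most abundant beta gene by count, was higher in GB-pos (23.1, 35.7 and 13.9 CPM) than in GB-neg (8.48, 10 and 8.28), by 1.44 ± 0.37 (adjusted p = 0.0116), which did not pass without GB-pos 2 (1.04, adjusted p = 0.0579). Of the 8 gamma subunit genes only Cacng4 was tested. Cacng4 had no count in SI-pos and 38, 15 and 44 in SI-neg, at least 23.9-fold lower in SI-pos (adjusted p = 0.0407). That call was lost without any 1 small intestine library, GB-pos 1 or GB-pos 2 (adjusted p 0.0533 to 0.11).

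**Figure D2:**
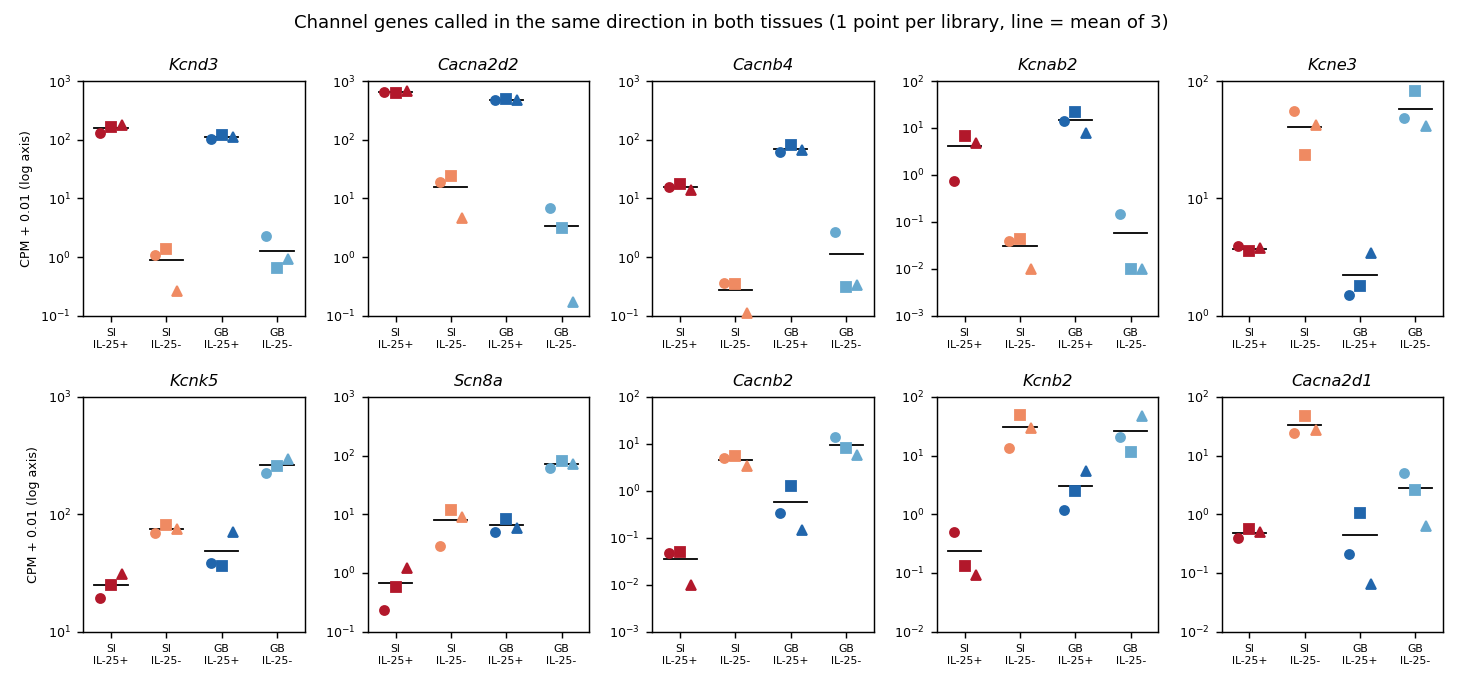
CPM plus 0.01 (log axis) of 10 of the channel genes that passed in the same direction in both gates, in the 4 groups on the x axis. Each point is 1 library and each line the mean of 3. For Kcnd3 the 6 IL-25+ libraries sit between 102 and 181 CPM and the 6 IL-25- libraries at or below 2.27.

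No Nav pore gene passed as higher in IL-25+ cells in either tissue. Of 4 tested pore genes, 2 were lower in the small intestine and 1 in the gallbladder. Of all tested genes, 14.5% were higher and 12.8% lower in the small intestine, and 12.4% and 14.4% in the gallbladder. Scn8a (chromosome 15, 100869858 to 101045938), a pore gene best known from neurons, read 0.226, 0.562 and 1.22 CPM in SI-pos, 2.82, 11.8 and 8.91 in SI-neg, 5.0, 8.46 and 5.92 in GB-pos, and 60.7, 81.0 and 73.1 in GB-neg. The gates did not overlap in either tissue, and the change was -3.55 ± 0.60 (adjusted p = 0.000781) and -3.47 ± 0.57 (adjusted p = 0.000645). Scn3a read 0.264, 0 and 1.82 CPM in SI-pos and 25, 45.6 and 25.1 in SI-neg (-5.52 ± 1.53, adjusted p = 0.0196), which did not pass without SI-pos 1 (adjusted p = 0.0755). In the gallbladder Scn3a stayed at or below 3.34 CPM in every library.

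Among the Nav beta subunit genes, 2 of 3 tested were lower in SI-pos, against 12.8% of all tested genes. Scn2b had 0.604, 0 and 0.0405 CPM in SI-pos and 30.0, 3.30 and 18.7 in SI-neg, a change of -6.30 ± 1.55 (adjusted p = 0.00889). Its size rested on SI-pos 1, without which it was -9.51 (adjusted p = 0.004). Scn3b had 1 count in all of SI-pos and 151, 139 and 135 in SI-neg, a ratio of 314 (exact 95% interval 56.0 to 12425, adjusted p = 0.0123). The Scn3b call was lost without SI-pos 2 (adjusted p = 0.0534).

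Kv pore genes were the largest group, 40 genes of which 19 were tested. In the small intestine 3 were higher (15.8%) and 4 lower (21.1%), against 14.5% and 12.8% of all tested genes. In the gallbladder 5 were higher (26.3%) and 1 lower (5.26%), against 12.4% and 14.4%. Kcnd3 (chromosome 3, 105452330 to 105674002), which encodes a rapidly inactivating A-type channel, passed in both gates with no overlap. It read 128, 164 and 181 CPM in SI-pos, 1.07, 1.37 and 0.254 in SI-neg, 102, 118 and 112 in GB-pos, and 2.27, 0.650 and 0.909 in GB-neg. The log2 fold change was 7.47 ± 0.63 in the small intestine (adjusted p = 3.83e-06) and 6.39 ± 0.59 in the gallbladder (adjusted p = 7.93e-06). Its levels in SI-pos and GB-pos overlapped, and the tissue difference of -0.51 ± 0.47 did not pass (adjusted p = 0.469). Kcnd1, another A-type pore gene, had group means of at most 2.87 CPM and passed in neither gate, and Kcnd2 had no count in any library.

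Kcnq1 was the most abundant Kv gene by count and passed in neither gate, with changes of -0.18 ± 0.32 (adjusted p = 0.72) and 0.72 ± 0.32 (adjusted p = 0.114).

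Kcnb2, a delayed rectifier gene, was lower in IL-25+ cells of both tissues. It read 0.490, 0.120 and 0.0811 CPM in SI-pos, 13.4, 49.2 and 29.8 in SI-neg, 1.16, 2.52 and 5.46 in GB-pos, and 20.9, 11.3 and 47.1 in GB-neg. The groups of a tissue did not overlap. The change was -7.02 ± 0.94 in the small intestine (adjusted p = 0.000132) and -3.11 ± 0.76 in the gallbladder (adjusted p = 0.0085).

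Other Kv pore genes passed in 1 tissue only. Kcnc1, a fast delayed rectifier, had 0.302, 0.361 and 0.284 CPM in SI-pos and 24.0, 59.7 and 12.2 in SI-neg (-6.65 ± 1.32, adjusted p = 0.00242), and at most 0.561 in any gallbladder library. The ERG and ELK genes Kcnh2 and Kcnh3 were also lower in SI-pos. Kcnh3 had no count there against 40, 71 and 136 in SI-neg, which made it at least 60.8-fold lower (adjusted p = 0.000209). Kcnh2 had 2 counts in SI-pos against 173, 28 and 72 in SI-neg, a ratio of 101 (exact 95% interval 27.6 to 837, adjusted p = 0.0115). In the gallbladder Kcnh8 was higher in IL-25+ cells (5.60, 3.97 and 3.10 CPM against 0.463, 0.0886 and 0), by 4.43 ± 1.19 (adjusted p = 0.0147), lost without GB-neg 2 (adjusted p = 0.0567). Kcns3, a silent modifier subunit, was higher there too (4.97, 2.08 and 7.35 CPM against 0.295, 0.236 and 0), by 4.68 ± 1.37 (adjusted p = 0.0226). The Kcns3 call was lost without GB-neg 2, GB-neg 3 or GB-pos 3 (adjusted p 0.0511 to 0.0591). In the small intestine Kcns3 changed by 3.55 ± 1.29, which missed the threshold (adjusted p = 0.0567).

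Accessory potassium channel genes held the other members of the shared pattern. Kcne3 (chromosome 7, 100176502 to 100184869), a single-span subunit that holds Kcnq1 channels open in intestinal and biliary epithelium, was low in all IL-25+ libraries: 3.89, 3.53 and 3.77 CPM in SI-pos and 1.48, 1.78 and 3.42 in GB-pos. It read 55.6, 23.6 and 42.4 in SI-neg and 48.2, 82.4 and 41.0 in GB-neg, so the gates did not overlap. The change was -3.44 ± 0.44 in the small intestine (adjusted p = 8.18e-05) and -4.68 ± 0.46 in the gallbladder (adjusted p = 9.76e-06). Its partner Kcnq1 was present in all groups at 62.4 to 334 CPM. Kcnab2, a cytoplasmic beta subunit of Kv channels, had 0.717, 6.86 and 4.82 CPM in SI-pos and 14.3, 21.4 and 7.65 in GB-pos. Only 2 counts were found in SI-neg, a ratio of 209 (exact 95% interval 57.4 to 1735, adjusted p = 0.00186), and 10 counts in GB-neg, all in GB-neg 1 (7.90 ± 1.36, adjusted p = 0.000863).

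Kcnmb4, a beta subunit of the large-conductance BK channel, was high in SI-pos alone: 2.94, 11.3 and 9.16 CPM there, 1 count in all of SI-neg, and at most 0.407 CPM in a gallbladder library. The ratio over SI-neg was 794 (exact 95% interval 142 to 31397, adjusted p = 0.00127). Of its exon length 31.5% is shared with antisense transcripts, of which Kcnmb4os2 had 12, 26 and 110 counts in SI-pos and none elsewhere, and without strand the reads of the pair cannot be told apart. The BK pore gene Kcnma1 was at 0.318 CPM on average in SI-pos and passed in neither gate (adjusted p = 0.197 in the small intestine).

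Inward rectifier genes passed in 1 tissue and 1 direction. In the small intestine 4 of 11 tested (36.4%) were lower and none higher, against 12.8% and 14.5% of all tested genes. In the gallbladder none of the 11 passed, against 26.8% of all tested genes. With so few genes these counts are not read as a trait of the subfamily. Kcnj2, a classical strong rectifier, had 20.2, 17.3 and 7.18 CPM in SI-pos and 35.6, 114 and 54.0 in SI-neg (-2.19 ± 0.48, adjusted p = 0.00442). The other 3 encode subunits of G protein-gated channels. Kcnj6 had no count in SI-pos and 84, 96 and 20 in SI-neg, at least 49.2-fold lower (adjusted p = 0.031). Kcnj5 had 0, 0 and 0.162 CPM against 2.28, 17.7 and 4.14 (-7.14 ± 1.93, adjusted p = 0.0152), and Kcnj3 had 3 counts against 58, 114 and 74, a ratio of 60.6 (exact 95% interval 20.5 to 296, adjusted p = 0.0363). Without SI-pos 3 the Kcnj5 change was -11.14 (adjusted p = 0.028), and without SI-pos 1 that of Kcnj3 was -9.44 (adjusted p = 0.0361). The Kcnj5 call was lost without SI-pos 1 or 2 (adjusted p 0.0553 and 0.0624), that of Kcnj3 without SI-pos 2, SI-pos 3 or any 1 SI-neg library (0.0645 to 0.121), and that of Kcnj6 without SI-neg 1, SI-neg 2 or any 1 SI-pos library (0.0636 to 0.0873). Antisense gene Gm26794 shares 31.1% of the exon length of Kcnj3 and had 62 and 35 counts in SI-neg 2 and 3. Kcnj16 had 101, 142 and 44.4 CPM in SI-pos and 7.09, 32.3 and 1.47 in SI-neg, without overlap, yet its change of 2.82 ± 1.22 did not pass (adjusted p = 0.117).

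Leak channel genes of the tandem-pore family gave both directions. Kcnk5 (chromosome 14, 20140057 to 20181809), an alkaline-activated leak channel of secretory epithelia, had 19.4, 25.1 and 30.7 CPM in SI-pos, 69.6, 81.4 and 74.2 in SI-neg, 38.7, 36.5 and 70.5 in GB-pos, and 227, 258 and 298 in GB-neg. It was lower in IL-25+ cells by -1.58 ± 0.26 in the small intestine (adjusted p = 0.000693) and -2.43 ± 0.27 in the gallbladder (adjusted p = 2.85e-05). Kcnk1 was higher in SI-pos (117, 108 and 91.6 CPM) than in SI-neg (26.0, 40.4 and 24.2), by 1.80 ± 0.28 (adjusted p = 0.000425). In the gallbladder it was 56.2, 96.9 and 81.6 CPM in GB-pos and 113, 98.3 and 167 in GB-neg, a change of -0.69 ± 0.27 that missed the threshold (adjusted p = 0.0794). Kcnk3, an acid-sensitive leak channel gene, had 67, 41 and 49 counts in SI-pos, none in SI-neg and 2 in all gallbladder libraries. It was at least 70.9-fold higher in SI-pos than in SI-neg (adjusted p = 0.00503). Kcnk16, known from endocrine pancreas, had no count in SI-pos and 61, 26 and 106 in SI-neg, at least 47.5-fold lower (adjusted p = 0.0108).

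Calcium- and sodium-activated genes, 8 tested, included none that was higher in IL-25+ cells in either tissue. Of all tested genes 14.5% were higher in the small intestine and 12.4% in the gallbladder. Kcnt2, a sodium-activated channel gene, had 193, 204 and 232 CPM in GB-neg and 5.92, 8.54 and 14.2 in GB-pos (-4.45 ± 0.90, adjusted p = 0.00418). In the small intestine it stayed at or below 3.33 CPM. Kcnn4, the intermediate-conductance calcium-activated channel gene of epithelia and blood cells, was lower in SI-pos (5.21, 4.05 and 5.64 CPM) than in SI-neg (18.5, 14 and 18.0), by -1.76 ± 0.34 (adjusted p = 0.00189). In the gallbladder Kcnn4 read 124, 43.1 and 77.4 CPM in GB-pos and 71.5, 55.6 and 68.7 in GB-neg, which overlapped (0.32 ± 0.32, adjusted p = 0.496). Kcnn2, a small-conductance channel gene, was found almost only in GB-neg, with 155, 95 and 64 counts against 2 in GB-pos, a ratio of 114 (exact 95% interval 31.2 to 944, adjusted p = 0.0196). Kcnt1 had no count in GB-pos and 9, 60 and 22 in GB-neg, at least 22.0-fold lower (adjusted p = 0.0207), a bound that was 9.98-fold without GB-neg 2 and 41.7-fold without GB-neg 1. The calls of Kcnn2 and Kcnt1 were both lost without GB-neg 2, GB-pos 1 or GB-pos 3 (adjusted p 0.0543 to 0.0631 for Kcnn2 and 0.0511 to 0.0559 for Kcnt1).

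**Figure D3:**
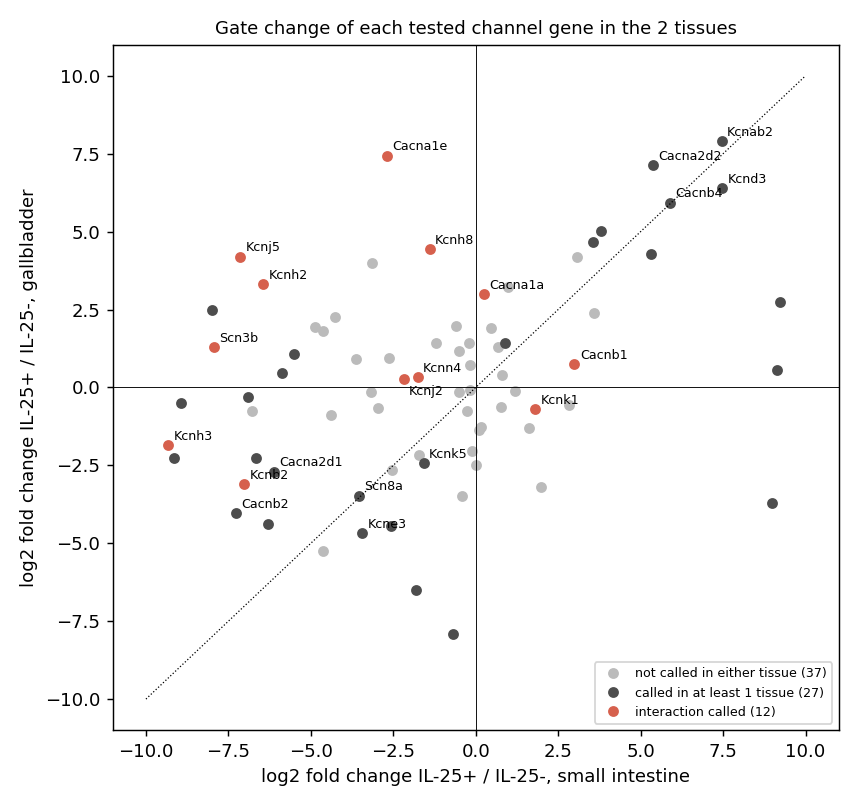
Log2 fold change of IL-25+ over IL-25- cells in the small intestine (x axis) and the gallbladder (y axis) for the 76 tested channel genes. Grey points passed in neither tissue, dark points in at least 1, and red points are the 12 genes whose change differed between the tissues by the interaction test. The dotted line marks equal change, and Kcnd3, Cacna2d2, Cacnb4 and Kcnab2 lie in the upper right.

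The second question was whether the gate's effect differs between the tissues. The interaction compares the IL-25+ against IL-25- log2 fold change of the gallbladder with that of the small intestine. It passed for 12 of 76 channel genes (15.8%), 10 with the larger value in the gallbladder and 2 in the small intestine, compared with 9.23% of all tested genes (3.63% and 5.60%). The median over the channel genes was 1.18 against -0.107 for all genes. The 2 with the larger value in the small intestine were Cacnb1 (-2.23 ± 0.51, adjusted p = 0.0149) and Kcnk1 (-2.49 ± 0.39, adjusted p = 0.00161). Both were higher in SI-pos than in SI-neg and passed no gate test in the gallbladder. Of the 10 others, Cacna1a, Cacna1e and Kcnh8 were higher in GB-pos without passing in the small intestine, Kcnh2, Kcnh3, Kcnj2, Kcnj5, Kcnn4 and Scn3b were lower in SI-pos without passing in the gallbladder, and Kcnb2 was lower in both. The calls of Cacna1a, Kcnh2, Kcnh3, Kcnj5, Kcnk1 and Kcnn4 passed under every alternative that gave the gene a result, and those of the other 6 did not.

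Of the 20 channel genes lower in SI-pos, 14 did not pass in the gallbladder: Cacna1h, Cacng4, Kcnc1, Kcnh2, Kcnh3, Kcnj2, Kcnj3, Kcnj5, Kcnj6, Kcnk16, Kcnn4, Scn2b, Scn3a and Scn3b. Markers of enteroendocrine cells, taken as a sum, were lower in SI-pos too. The 14 markers summed to 5773 to 14438 CPM in SI-neg, 24.6 to 303 in SI-pos, 74.5 to 472 in GB-neg and 18.3 to 37.4 in GB-pos. None of the 14 was at 0 in any group, 10 of 14 were lower in SI-pos by the test, and 2 of 14 were lower in GB-pos. GB-neg 1, the deepest library and the one with intestinal transcripts, was the highest of the 3 GB-neg libraries for 11 of the 14 genes. It held all 40 GB-neg counts of Kcnc1 and all 32 of Kcnj6. The same share over all tested genes was not counted, so the 11 of 14 is not read as a trait of these genes. Within SI-neg the genes did not share 1 order. The marker sum was highest in SI-neg 2, where Kcnc1 and Kcnj5 were highest but Scn2b, Kcnk16, Kcnh2 and Cacng4 were lowest. The part of enteroendocrine cells in these differences was not tested. The 5 goblet markers differed in level too, from 110 to 468 CPM summed in SI-pos to 3904 to 53049 in SI-neg. So did the 5 Paneth markers, from 19.5 to 102 CPM to 513 to 4274, and the 7 enterocyte markers, from 3339 to 5198 CPM to 11811 to 19030. By the test, 5 of 5 goblet markers, 1 of 4 tested Paneth markers and 0 of 7 enterocyte markers were lower in SI-pos, and the part of these cells was not tested. A list of 9 neuron and glia markers summed to 60.5 to 139 CPM in SI-neg and 4.90 to 10.1 in SI-pos. In SI-pos 2 of the 9 were at 0, Uchl1 among them, and no marker was at 0 in SI-neg. By the test, 1 of the 7 tested markers was higher and 1 lower in SI-pos, so the list did not move as a whole. The part of neurons and glia was not tested either.

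**Figure D4:**
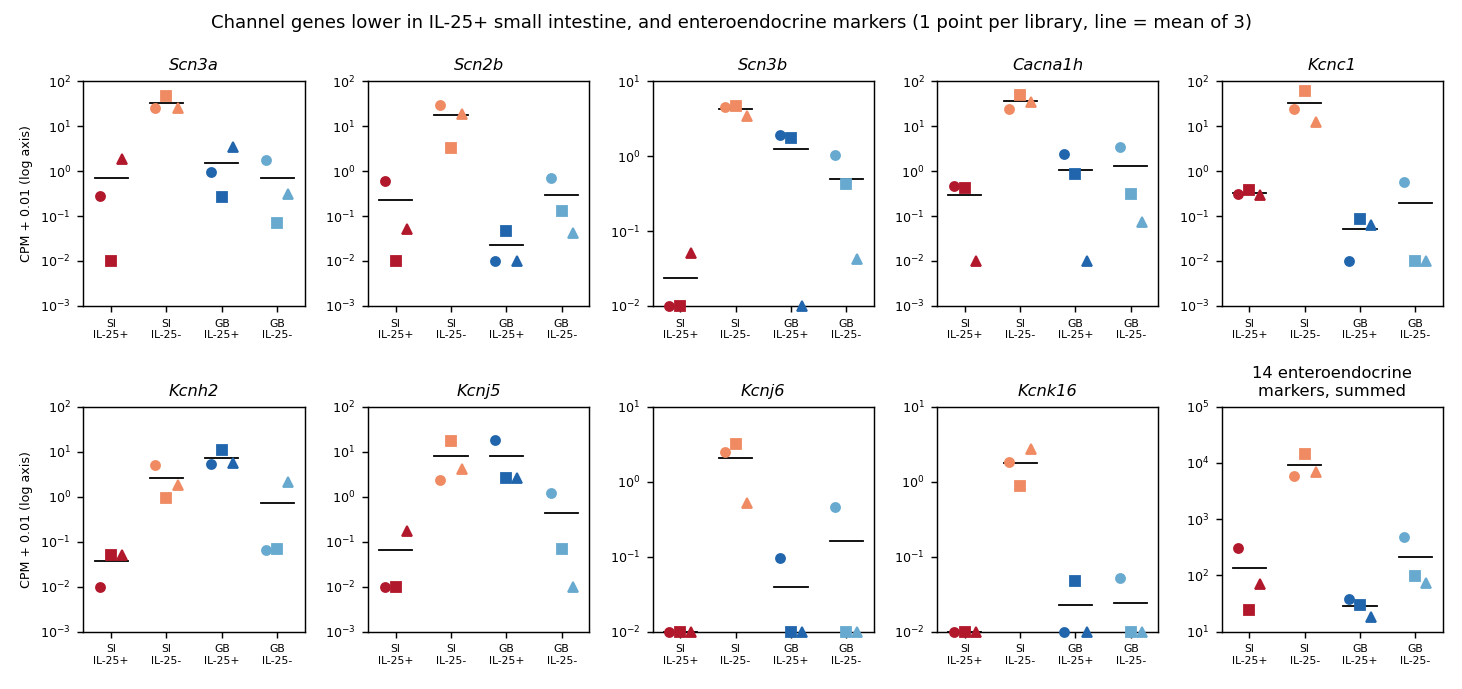
CPM plus 0.01 (log axis) of 9 channel genes that were lower in IL-25+ small intestine and did not pass in the gallbladder, with the sum of 14 enteroendocrine markers in the last panel. Each point is 1 library and each line the mean of 3. The marker sum is 5773 to 14438 CPM in SI-neg and at most 472 in every other library.

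The third question was how the tissues differ within each gate. These comparisons reuse the libraries of the gate comparisons, so they are given as values of their own. Between GB-pos and SI-pos, 23 of 76 channel genes (30.3%) differed, 16 higher and 7 lower in GB-pos, compared with 23.7% of all genes (10.5% higher and 13.1% lower). The median was 1.04 against -0.087. Between GB-neg and SI-neg, 24 of 76 (31.6%) differed, 11 higher and 13 lower in GB-neg, compared with 24.6% of all genes (13.0% and 11.7%), with a median of -0.55 against -0.026. Both comparisons passed in the same direction for Kcnh3, Kcnk5, Kcnn4, Kcnt2 and Scn8a, which were higher in the gallbladder, and for Cacna1c, Kcnj16 and Kcnk10, which were lower.

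Among genes higher in gallbladder IL-25+ cells, Kcnn4 differed by 4.04 ± 0.37 (adjusted p = 1.02e-05), from 4.96 CPM in SI-pos to 81.6 in GB-pos. Kcnq1, which was high in all groups, was higher by 1.60 ± 0.33 (adjusted p = 0.00326), with 296, 334 and 299 CPM in GB-pos and 125, 107 and 75.6 in SI-pos. Several channel genes were absent or nearly so from SI-pos. Kcnh3 had no count there and 108, 288 and 138 in GB-pos, at least 137-fold higher (adjusted p = 0.000111), or 87.2-fold without GB-pos 2. Kcnq3, an M-type pore gene, had none in SI-pos and 72, 782 and 17 in GB-pos, at least 224-fold higher over the group (adjusted p = 0.00602), a bound of 31.5-fold without GB-pos 2 and 353-fold without GB-pos 3. Kcnh2 had 2 counts against 182, 292 and 203, a ratio of 261 (exact 95% interval 72.1 to 2163, adjusted p = 0.00526). Kcnt2 was higher by 5.38 ± 1.05 (adjusted p = 0.00408) and Scn8a by 3.27 ± 0.60 (adjusted p = 0.00164).

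Higher in small intestine IL-25+ cells were Cacna1c, the L-type pore of heart and smooth muscle, and 6 potassium channel genes. Cacna1c had 26.4, 24.0 and 32.3 CPM in SI-pos and 0.0871, 0.891 and 0.0808 in GB-pos, a change of -6.33 ± 1.18 (adjusted p = 0.00199). Of the 6 smooth muscle and interstitial cell markers, only 2 passed the count filter. Myh11 was at 0 in SI-pos and in GB-pos, and Des was at 0 in GB-pos. The sum of the list was 565 to 653 CPM in SI-pos, 38.3 to 59.6 in SI-neg and 645 to 779 in GB-pos. Ano1, 1 of the 2 tested, averaged 0.859 CPM in SI-pos. In the small intestine gate 1 of the 2 was higher and 1 lower, so the sum does not stand for the list as a whole. Kcnj16, which forms heteromeric rectifiers in kidney and other epithelia, had 101, 142 and 44.4 CPM in SI-pos and 0.145, 1.22 and 0 in GB-pos (-7.78 ± 1.58, adjusted p = 0.00563). Its chromosomal neighbour Kcnj2 did not pass in that comparison (0.76 ± 0.46, adjusted p = 0.255). Kcnk3 had 1 count in GB-pos, 203-fold less than in SI-pos (exact 95% interval 36.0 to 8079, adjusted p = 0.0123), and Kcnmb4 differed by -5.42 ± 1.35 (adjusted p = 0.0109). Kcnt1 had no count in GB-pos and was at least 50.1-fold lower there (adjusted p = 0.016), or 17.2-fold without SI-pos 1. Kcnk6 (-3.65 ± 1.03, adjusted p = 0.0214) and Kcnk10 (-4.93 ± 1.33, adjusted p = 0.0167) completed the 7. The Kcnk6 call was lost without GB-pos 3 or SI-pos 3 (adjusted p 0.0735 and 0.0569) and that of Kcnk10 without GB-pos 2 or SI-pos 2 (0.06 and 0.0516).

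In IL-25- cells the sodium-activated Kcnt2 had the widest separation toward the gallbladder among genes present in all libraries, with 193, 204 and 232 CPM in GB-neg and 0.445, 0.267 and 3.33 in SI-neg (7.25 ± 1.03, adjusted p = 0.000614). Kcnn2 had 1 count in SI-neg and 314 in GB-neg, a ratio of 238 (exact 95% interval 42.4 to 9434, adjusted p = 0.0136). Scn8a was higher by 3.19 ± 0.57 (adjusted p = 0.00129), Cacnb1 by 3.16 ± 0.39 (adjusted p = 9.18e-05), Kcnk1 by 2.06 ± 0.28 (adjusted p = 0.000224), Kcnk5 by 1.80 ± 0.27 (adjusted p = 0.000349) and Kcng3, a silent Kv subunit, by 4.71 ± 1.27 (adjusted p = 0.0174). The 13 lower genes included Cacna1a (-2.89 ± 0.29, adjusted p = 1.81e-05), Cacna1c (-5.93 ± 1.15, adjusted p = 0.00252), Cacna2d1 (-3.57 ± 0.89, adjusted p = 0.011) and Kcnc1 (-7.23 ± 1.34, adjusted p = 0.0018). They also held Scn2b, Scn3a, Kcnj3 and Kcnk16, of the 14 genes above that were lower in SI-pos and did not pass in the gallbladder gate. Kcnk16 was 84.8-fold lower in GB-neg by its counts (exact 95% interval 28.6 to 415). Calls were lost for Kcnn2 without SI-neg 1 or 2 (adjusted p 0.0562 and 0.0532), for Kcng3 without SI-neg 3 (0.0554), for Scn2b without SI-neg 1 (0.0546) and for Scn3a without GB-neg 2, GB-neg 3 or SI-neg 2 (0.0508 to 0.0795). They were also lost for Kcnk16 without GB-neg 2, GB-neg 3, SI-neg 1 or SI-neg 3 (0.0548 to 0.0903), and for Kcnj3 without GB-neg 2, GB-neg 3 or any 1 SI-neg library (0.0633 to 0.111).

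Several tissue calls turned on 1 library. Without GB-neg 1 the IL-25- change was -12.94 for Kcnc1, -9.27 for Kcnk10 and -9.25 for Kcnj3, all still past the threshold. Without SI-neg 2 the IL-25- change of Kcnj16 was -2.74 (adjusted p = 0.144) against -4.41 ± 1.35, and that of Kcnj2 was -1.09 (adjusted p = 0.108) against -1.69 ± 0.47. The Kcnj2 call was also lost without GB-neg 3 (-1.42, adjusted p = 0.0743), and the Kcnj16 call was lost without 9 of the 12 libraries as each was left out in turn (adjusted p 0.0524 to 0.144). In IL-25+ cells Kcnj10, a glial and epithelial rectifier, owed 623 of its 657 GB-pos counts to GB-pos 1, and without that library its difference from SI-pos was 4.32 (adjusted p = 0.152) against 7.73 ± 2.05. The IL-25+ difference of Kcnk5 was 0.62 without GB-pos 3 (adjusted p = 0.0768) against 0.95 ± 0.26, and that of Kcnj5 was 11.12 without SI-pos 3 (adjusted p = 0.0293) against 7.12 ± 1.93. The Kcnk5 call was also lost without SI-pos 1 or 2 (adjusted p 0.0778 and 0.0587), that of Kcnj10 without SI-pos 1 or 2 (0.0662 and 0.0692), and that of Kcnj5 without GB-pos 1, SI-pos 1 or SI-pos 2 (0.055, 0.0648 and 0.0685). Leaving out each library in turn, 13 of the 23 IL-25+ calls and 12 of the 24 IL-25- calls passed every time. The 12 in IL-25- cells were Cacna1a, Cacna1c, Cacna2d1, Cacnb1, Kcnc1, Kcnh3, Kcnk1, Kcnk10, Kcnk5, Kcnn4, Kcnt2 and Scn8a.

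**Figure D5:**
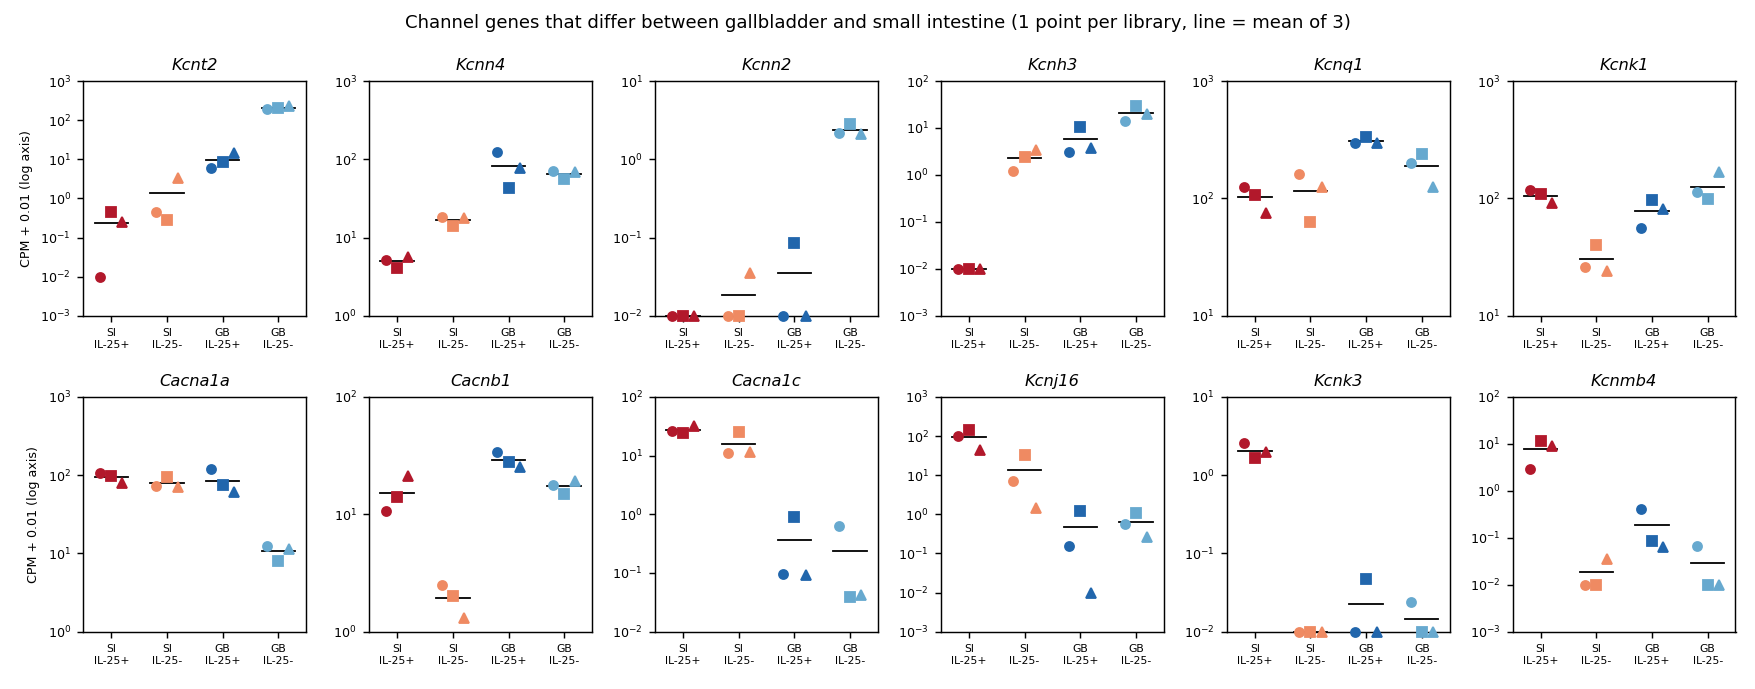
CPM plus 0.01 (log axis) of 12 channel genes that differ between gallbladder and small intestine, in the 4 groups on the x axis. Each point is 1 library and each line the mean of 3. Kcnt2 reads 193 to 232 CPM in GB-neg and at most 3.33 in the small intestine, and Cacna1c reads 11.1 to 32.3 CPM in the small intestine and at most 0.891 in the gallbladder.

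Other genes that set or modulate membrane potential were read from a list of 54, of which 53 are in the table and 33 were tested. In the small intestine 6 of the 33 were higher and 13 lower in IL-25+ cells, and in the gallbladder 9 were higher and 5 lower. Of all tested genes, 14.5% were higher and 12.8% lower in the small intestine, and 12.4% and 14.4% in the gallbladder. Trpm5, the cation channel that depolarises tuft cells, had 4758, 5311 and 5287 CPM in SI-pos and 4413, 5027 and 4234 in GB-pos, against 46.6 at most in an IL-25- library. Its change was 7.22 ± 0.67 in the small intestine (adjusted p = 1.54e-05) and 7.63 ± 0.68 in the gallbladder (adjusted p = 1.12e-05). Calhm3, a pore subunit of the ATP-release channel of taste cells, rose by 8.76 ± 0.88 (adjusted p = 1.13e-05) and 9.80 ± 0.86 (adjusted p = 3.97e-06). Calhm1, from the same list, had no count in any library. Fgf11, a fibroblast growth factor homologue of the group that binds Nav channels, had 136, 139 and 152 CPM in SI-pos and 20.8, 24.4 and 18.8 in SI-neg (2.74 ± 0.36, adjusted p = 0.00011).

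The genes with the most similar pattern over the 12 libraries were taken by Pearson correlation of log2 CPM, as a description. For Kcnd3 they were Gm26797 (r = 0.991), Bmx (0.991), a tyrosine kinase gene, and Nxpe2 (0.99). For Kcne3 they were Ugt1a6a (0.974), Ralgapa2 (0.972) and Sept6 (0.968). For Cacnb1 they were Colca2 (0.975), Degs2 (0.975) and P3h1 (0.971), and for Cacna1a they were Snx20 (0.97), Snx9 (0.969) and Efcab5 (0.964). The 12 points share the 4 groups, so any gene with the same group means scores high.

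The 58 genes below the filter covered 21 of the 40 Kv pore genes, 8 accessory, 7 tandem-pore, 7 gamma, 6 Nav pore, 4 inward rectifier, 3 Cav pore, 1 alpha2delta and 1 Nav beta gene. The Shaker-type genes Kcna1 to Kcna7 and Kcna10 were among them, Kcna2 with 94 counts that all came from GB-neg 1. The skeletal muscle sodium channel gene Scn4a reached at most 189 counts in a library, and the neuronal genes Scn1a and Scn2a reached 0 and 21. Kcnj8, Kcnj12, Kcnd2, Kcnh5 and Kcne4 had no count in any library. For a gene with no count, 3 counts in a library correspond to 0.0463 (GB-neg 1) to 0.1266 (GB-pos 2) CPM of unscaled totals, so lower levels were not detectable at this depth.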

How the data were processed

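Amplified cDNA (NuGen Ovation V2) of the 12 sorted libraries was made into Nextera XT libraries and sequenced, per the labels' protocols. The authors deposited a table of raw read counts per Ensembl gene. The submitters' processing notes name STAR 2.7.2b, DESeq2 1.26 and GRCm38. The counter, the strand setting and the annotation release are not given in the sources used here. The library chemistry, as described, does not mark strand. The table also holds 11 columns that matched no sample and were not used. Symbols came from GENCODE M21, which matched 42548 of 43432 genes, and the other 884 held at most 0.119% of a library's counts.

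Counts were filtered with filterByExpr (minimum count 10), scaled by TMM and tested in edgeR 4.0.16 with a robust quasi-likelihood fit of group over all 12 libraries, Benjamini-Hochberg adjusted over 16636 genes at 0.05. An SE is the log2 fold change divided by the square root of F. Steps were tested on simulated data. A group at 0 was set to a floor of 3 counts per group, and ratios over 1 to 3 counts carry exact binomial 95% intervals. Replicates of each group differed by more than sampling noise. Counts per kilobase used the merged exon length. Alternatives used DESeq2 1.42.0 and limma 3.58.1 (R 4.3.3). Named genes were, in each comparison, up to 12 called higher and 12 called lower at 1 CPM or more in the higher group, the most abundant of each subfamily, every interaction call, the 4 lowest adjusted p of the list of other channel genes per gate, and 3 like genes for the 3 lowest adjusted p per gate. Other genes named with values were chosen after their values were seen. The channel genes and the lists were chosen with earlier results of these data known. Some genes that met these rules are not reported here.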

Additional observations from a re-analysis of the deposited data

Results flagged for a closer look

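For 12 channel genes the IL-25+ against IL-25- change differed between gallbladder and small intestine by the interaction test (edgeR's quasi-likelihood test, Benjamini-Hochberg adjusted). Values are the gallbladder log2 fold change minus that of the small intestine. Of these, 6 passed under every alternative that gave the gene a result. They were Cacna1a (2.74), Kcnk1 (-2.49), Kcnn4 (2.08), Kcnh3 (7.49, adjusted p = 0.00864), Kcnh2 (9.76, adjusted p = 0.0115) and Kcnj5 (11.33, adjusted p = 0.0127). Kcnj5 had a result under 18 alternatives and the others under 19. SI-pos had no count of Kcnh3, 2 of Kcnh2 and 4 of Kcnj5, so these last 3 sizes depend on the prior count of the fit.

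The other 6 were less stable. Cacnb1 (-2.23) was -2.00 without SI-neg 3 and GB-neg 1 together (adjusted p = 0.0579). Kcnj2 (2.46, adjusted p = 0.0329) was 1.86 without SI-neg 2 (adjusted p = 0.0825) and was lost without 6 other libraries: GB-neg 1, GB-neg 3, GB-pos 1, GB-pos 2, SI-pos 2 and SI-pos 3. Kcnb2 (3.91, adjusted p = 0.0396) was lost without 8 libraries, with adjusted p up to 0.106 on leaving out 1: GB-neg 1, GB-neg 2, GB-pos 2, GB-pos 3, SI-neg 2, SI-neg 3, SI-pos 2 and SI-pos 3. Kcnh8 (5.83, adjusted p = 0.0344) was lost without 8 (up to 0.0872): GB-neg 2, GB-pos 1, GB-pos 2, SI-neg 1, SI-neg 2 and any 1 SI-pos library. Cacna1e (10.11, adjusted p = 0.0267) was 6.06 without SI-neg 2 (adjusted p = 0.0927) and was lost without 6 others: GB-neg 2, GB-neg 3, GB-pos 1, GB-pos 2, SI-pos 1 and SI-pos 3. Scn3b (9.24, adjusted p = 0.0351) was lost without 10 (up to 0.0952): GB-neg 2, GB-neg 3, GB-pos 1, GB-pos 2 and any 1 small intestine library.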

How the results depend on the processing

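The counts of channel genes that passed were 31 (small intestine gate), 20 (gallbladder gate), 23 (IL-25+ tissue), 24 (IL-25- tissue) and 12 (interaction). They were 31, 20, 23, 26 and 12 with RLE size factors and 26, 17, 19, 22 and 12 with no count filter. The IL-25- tissue count was 37 with limma-voom quality weights, the interaction count was 20 with DESeq2, and the IL-25+ tissue count was 15 under a filter of 5 CPM in 3 libraries, which tests fewer genes. Otherwise the cause was not tested. Leaving out each library in turn gave 23 to 32, 14 to 20, 16 to 24, 15 to 29 and 7 to 16. The lowest IL-25- tissue count, 15, came without SI-neg 2, and the lowest interaction count, 7, without SI-neg 2 or GB-pos 2. Without SI-neg 3 and GB-neg 1 together, an alternative added after seeing the data, they were 27, 18, 23, 24 and 14. No gene's direction turned where it had passed. Calls that passed under every alternative that gave the gene a result were 22 of 31, 11 of 20, 11 of 23, 12 of 24 and 6 of 12. An alternative that filtered a gene out or gave it no adjusted p was not counted for that gene.

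With the replicate number as a block the counts were 31, 21, 21, 24 and 14. Same-numbered libraries of a tissue had correlations of their deviations from -0.028 to 0.162, and the labels state no pairing, so the numbers were not taken to pair libraries. RLE size factors moved the median of all genes by -0.124 in the small intestine gate, 0.108 in the IL-25+ tissue comparison and 0.165 in the interaction. The interaction could not be fitted on the compared groups alone.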

Other observations

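Among the other genes that modulate membrane potential, chosen here after their values were seen, 3 passed in opposite directions in the 2 tissues. Fxyd6, a modulator of the sodium pump, read 0.0377, 0.0401 and 0.243 CPM in SI-pos, 8.01, 11.6 and 14 in SI-neg, 37.8, 18.4 and 40.1 in GB-pos, and 0.646, 0.0295 and 0.487 in GB-neg. It was lower in IL-25+ cells of the small intestine by a log2 fold change of -6.68 ± 0.96 and higher in those of the gallbladder by 6.32 ± 0.89, and the difference of 13.00 ± 1.30 passed the interaction test (edgeR, adjusted p = 8.24e-05). Unc79 and Unc80 encode subunits of the sodium leak channel complex, whose pore gene is Nalcn. Unc79 read 0.566, 0.120 and 0.162 CPM in SI-pos, 4.06, 12.1 and 5.46 in SI-neg, 9.61, 14.8 and 16 in GB-pos, and 0.393, 0.0295 and 0 in GB-neg. Its changes were -4.65 ± 1.11 and 6.40 ± 1.20, with an interaction of 11.05 ± 1.63 (adjusted p = 0.00101). Unc80 changed by -3.97 ± 1.30 and 4.38 ± 1.32, with an interaction of 8.35 ± 1.86 (adjusted p = 0.0129). Unc80's small intestine call was lost without any 1 small intestine library (adjusted p up to 0.126) and its gallbladder call without GB-pos 1, GB-neg 2 or GB-neg 3 (up to 0.0752). Nalcn itself had at most 1.24 CPM in a library (SI-neg 3) and was not tested. The summed enteroendocrine markers given above were also lower in SI-pos than in SI-neg, as all 3 genes were. The part of enteroendocrine cells was not tested.

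Partners of potassium channel subunits differed as well. Abcc8, the sulfonylurea receptor that partners Kcnj11, had 31.1, 18.3 and 32.4 CPM in GB-pos and 2.06, 2.36 and 0.292 in GB-neg (4.10 ± 0.62, adjusted p = 0.000311), against -0.79 ± 0.55 in the small intestine (adjusted p = 0.311), and the interaction passed (4.89 ± 0.81, adjusted p = 0.00219). Kcnj11 had group means of 0.834 to 2.68 CPM and passed in no comparison. Lrrc26, an auxiliary subunit of the BK channel, had 23.1, 22.2 and 14.3 CPM in GB-pos and at most 0.340 in SI-pos (6.74 ± 1.06, adjusted p = 0.000573), while its gallbladder gate change of 1.77 ± 0.82 did not pass (adjusted p = 0.129), and the BK beta gene Kcnmb4 was higher in SI-pos than in GB-pos.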
